A study of Sus scrofa with 6 samples.

Results

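Regulators of mitochondrial biogenesis and the uncoupling proteins were followed in the back muscle of Tibetan pigs, a breed native to the Tibetan plateau. The 10 genes share known roles, were listed with earlier results of these data known, and were found by the current Ensembl pig symbol of each gene ID. Of these, 9 had a row among the 25322 genes of the table, namely PPARA, PPARD, PPARGC1A, PPARGC1B, ESRRA, NRF1, SIRT3, UCP2 and UCP3. The ID that now carries the symbol TFAM matched no row, so TFAM is not analysed here. Levels are given as FPKM, the number of sequenced fragments per gene after division by the gene's length and by the library's size. All 9 passed the filter on low values, which asked for 3 or more of the 6 libraries to reach an FPKM of 1, and 10005 genes in all did so.

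The libraries were made from the longissimus dorsi, a muscle that runs along the spine, of 6 healthy female Tibetan pigs, with 1 library per animal. The highland animals were 3 free-ranging pigs from about 4000 m. The lowland animals were 3 pigs from the Chengdu plain at about 500 m, kept under experimental conditions with normal daily feeding and descended from Tibetan pigs bred there over several generations. Altitude, husbandry, feeding, place and line history therefore differed together between the groups and cannot be told apart, and no ages are given for the animals. The muscle is a mixture of fibre types and other cells, so fewer cells of a type and less RNA per cell cannot be told apart.

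New mitochondria are made when nuclear genes for mitochondrial proteins and the mitochondrial genome are transcribed together. The coactivators PGC-1 alpha (gene PPARGC1A) and PGC-1 beta (PPARGC1B) bind no DNA themselves and act through DNA-binding factors, among them the estrogen-related receptor ESRRA, the nuclear respiratory factor NRF1 and the fatty acid-sensing receptors PPARA and PPARD. SIRT3 is a deacetylase of the mitochondrial matrix that acts on enzymes of oxidation. The uncoupling proteins UCP2 and UCP3 are carriers of the inner mitochondrial membrane. UCP3 is the form typical of skeletal muscle, is known to be induced by PPAR ligands and by fasting, and lies next to UCP2 in the RefSeq gene order (assembly Sscrofa11.1).

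The deposited FPKM totals ran from 506611 to 571855 per library, and 9278 to 10100 genes per library reached an FPKM of 1. The absolute depth cannot be read from FPKM, while the steps between low values put the relative depth of the libraries between 0.859 and 1.22. Highland animal 1 stood apart on the first principal component (31.5% of the variance). Its summed FPKM over 4 slow fibre genes was 10493, against 2751 to 6874 in the other libraries, and its sum over 5 fibroblast and matrix genes was 246, against 688 to 1067. Skeletal muscle genes were abundant in every library, with a summed FPKM of 30034 to 37833 over 5 fast fibre genes, whereas the 2 adipocyte markers with a row, PLIN1 and CIDEC, summed to 3.88 to 22.0. Of all 10005 tested genes, 23 differed between lowland and highland (0.230%), at a threshold of 0.05 on the p-value from limma after Benjamini-Hochberg adjustment over all of them, called the adjusted p from here on. This count was 4 without highland animal 3 or without lowland animal 3, and other settings gave 6 to 38, so the background share is itself unsteady.

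None of the 9 genes passed that threshold. The 3 patterns most visible in the values were a lower SIRT3, a higher but widely spread UCP3 and a shift of PGC-1 alpha against PGC-1 beta in the lowland animals. The shift was examined by an exact permutation test that could not reach 0.05, since its smallest possible p is 0.1. The ratio of UCP3 to UCP2 also separated the groups, under the same limit. The count of 0 from limma compares with 1 gene, SIRT3, at an unadjusted p under 0.05, where 9.42% of all tested genes were at that level. This unadjusted count moved between 0 and 3 in other settings. The adjusted p of the 9 genes lay between 0.313 and 0.947. Estimates were above 0 (higher in the lowland) for UCP3, PPARGC1A and PPARD and below 0 for the other 6. Their median log2 fold change, lowland minus highland on the log2(FPKM + 1) scale, was −0.25, beside a median of 0.041 over all tested genes, of which 57.7% were above 0. In 2 of the 9 genes, SIRT3 and PPARA, every lowland value lay below every highland value. Over all tested genes the groups did not overlap in 16.1%, and 4.80% did not overlap with the lower values in the lowland.

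**Figure D1:**
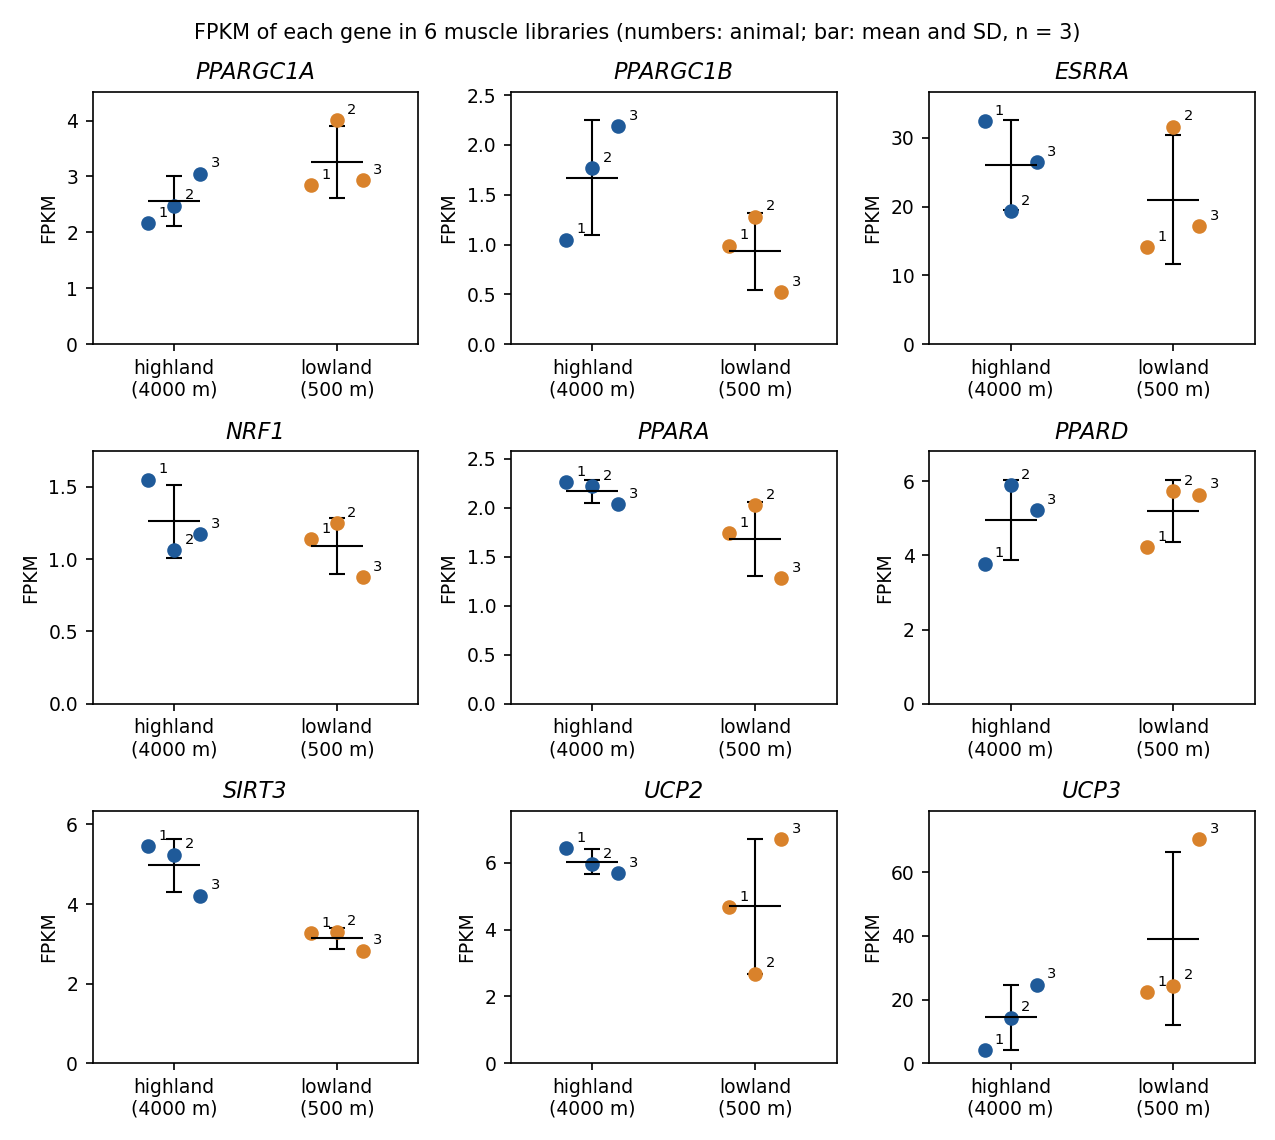
FPKM (linear axis from 0) of the 9 genes in each of the 6 libraries, with highland animals in blue, lowland animals in orange, the animal's number beside each point and bars for the mean and SD of 3 animals. The groups are apart for SIRT3 and only just for PPARA (lowest highland value 2.04, highest lowland value 2.03), while UCP3 runs from 4.18 to 70.5 and overlaps between the groups.

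Levels of different genes are set side by side here as FPKM, which is per length but depends on gene models whose release is not stated. ACADVL, an enzyme of fatty acid oxidation, was at 0.0768 to 0.607 beside its relative ACADM at 78.8 to 134. Both were named after their values were seen, and the part of the gene models in such levels was not tested. On this scale the uncoupling protein UCP3 and the receptor ESRRA had the highest means of the 9. Their means over the 6 libraries were 26.7 and 23.5, above those of 86.9% and 85.3% of the tested genes. UCP3 was above ESRRA in 2 of the 6 libraries only, so their order is not settled. ESRRA was above the next gene, UCP2 (mean 5.36), in 6 of 6 libraries with no overlap of their ranges. UCP2, PPARD (5.08), SIRT3 (4.05) and PPARGC1A (2.91) followed, each overlapping in range with its neighbour. The regulators PPARA (1.93), PPARGC1B (1.30) and NRF1 (1.17) were near the floor of the filter. PPARGC1B was above NRF1 in 3 of 6 libraries, and its mean exceeded that of only 8.48% of tested genes.

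The order of the means differed between the groups at its top and also among the less abundant genes. UCP3 had the highest mean in the lowland, 39.1, with ESRRA at 21.0, and ESRRA was higher in 3 of 3 libraries in the highland, with a mean of 26.0 against 14.4. In the lowland UCP3 was above ESRRA in 2 of 3 libraries, the exception being library 2.

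The coactivators came first in the pathway. PPARGC1A, whose product is induced by exercise, cold and fasting, was at an FPKM of 2.16, 2.48 and 3.05 in highland animals 1 to 3 and at 2.85, 4.01 and 2.93 in lowland animals 1 to 3. Highland animal 3 lay above lowland animals 1 and 3, so the groups overlapped. The means were 2.56 ± 0.449 (SD, n = 3) in the highland and 3.26 ± 0.650 in the lowland, a log2 fold change of 0.26 (95% interval −0.13 to 0.64, limma, adjusted p = 0.677). The interval reaches from a slightly lower to a higher level in the lowland, and the estimate was 0.17 without highland animal 1 and 0.13 without lowland animal 2.

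PPARGC1B, the second coactivator, was at 1.05, 1.77 and 2.19 in the highland and at 0.989, 1.28 and 0.521 in the lowland. Highland animal 1 fell between lowland animals 1 and 2, and lowland animal 3 was the lowest of all. The means were 1.67 ± 0.579 and 0.931 ± 0.384, with a log2 fold change of −0.46 (95% interval −0.99 to 0.06, limma, adjusted p = 0.575). On this scale the change of such a low gene is understated, and the ratio of the mean FPKM was 1.80 in favour of the highland. The log2 fold change was −0.80 with a pseudocount of 0.1 in place of 1. It was −0.64 without highland animal 1, −0.32 without highland animal 3 and −0.30 without lowland animal 3, with no pass in any of these fits.

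Within a library, the plain FPKM ratio of the coactivators does not move with the scaling of that library. PPARGC1A exceeded PPARGC1B in FPKM in all 6 libraries, by 2.06, 1.40 and 1.39 times in the highland and by 2.88, 3.13 and 5.61 times in the lowland. The ratio was higher in each lowland animal than in any highland animal. As the log2 ratio of FPKM + 1 it averaged 0.43 ± 0.17 (SD, n = 3) in the highland and 1.15 ± 0.21 in the lowland, a difference of 0.72. A two-sided exact permutation test gave p = 0.1, the smallest that 3 against 3 libraries allows, and 0.15 after Benjamini-Hochberg adjustment over the 3 ratios examined. This difference was 1.13 with a pseudocount of 0.1 in place of 1, was 0.82 without highland animal 1, and lay between 0.61 and 0.82 with any 1 library left out.

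Among the DNA-binding partners of the coactivators, ESRRA differed more between animals of a group than between the groups. ESRRA, the estrogen-related receptor that drives genes of oxidative phosphorylation, was at 32.4, 19.3 and 26.4 in the highland and at 14.1, 31.6 and 17.2 in the lowland. Highland animal 1 and lowland animal 2 were the highest and nearly equal, so the groups overlapped. The means were 26.0 ± 6.57 and 21.0 ± 9.33, a log2 fold change of −0.35 (95% interval −1.10 to 0.40, limma, adjusted p = 0.771). The estimate rested on single animals, at −0.18 without highland animal 1, −0.54 without highland animal 2, −0.12 without lowland animal 1 and −0.67 without lowland animal 2.

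The same libraries were high in slow fibre genes. The summed FPKM over the 4 slow fibre genes with a row was 10493, 2751 and 6874 in the highland and 3126, 4707 and 3106 in the lowland. Highland animals 1 and 3 and lowland animal 2 were thus the highest for both ESRRA and the slow fibre sum, though in a different order. All 4 of these genes had estimates below 0, and troponin C of slow fibres, TNNC1, was at 2817 ± 1978 in the highland and 1418 ± 337 in the lowland. The part of fibre type in the ESRRA values was not tested.

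NRF1, the nuclear respiratory factor that binds promoters of respiratory chain genes, was the least abundant of the factors. Its FPKM was 1.55, 1.06 and 1.17 in the highland and 1.14, 1.25 and 0.875 in the lowland. The groups overlapped, with the extremes in highland animal 1 and lowland animal 3. The means were 1.26 ± 0.255 and 1.09 ± 0.192, with a log2 fold change of −0.11 (95% interval −0.45 to 0.23, limma, adjusted p = 0.858). It was −0.02 without highland animal 1, −0.04 without lowland animal 3 and −0.17 without either highland animal 2 or lowland animal 2.

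PPARA, the receptor that drives fatty acid oxidation during fasting, was at 2.26, 2.22 and 2.04 in the highland and at 1.74, 2.03 and 1.28 in the lowland. The groups did not overlap, but highland animal 3 and lowland animal 2 were almost equal. The means were 2.17 ± 0.118 and 1.68 ± 0.375, 1.29-fold higher in the highland, with a log2 fold change of −0.25 (95% interval −0.59 to 0.09, limma, adjusted p = 0.643). Without lowland animal 3, the lowest, it was −0.14.

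PPARD, the PPAR form that predominates in skeletal muscle, showed no steady direction. Its FPKM was 3.78, 5.89 and 5.23 in the highland and 4.22, 5.73 and 5.64 in the lowland, so that library 1 was the lowest in either group and the groups overlapped almost entirely. The means were 4.97 ± 1.08 and 5.20 ± 0.846, with a log2 fold change of 0.06 (95% interval −0.38 to 0.50, limma, adjusted p = 0.947). The estimate was −0.09 without highland animal 1, −0.003 without lowland animal 2 and −0.07 with array weights. The log2 ratio of PPARD to PPARA was 0.90 ± 0.30 (SD, n = 3) in the highland and 1.21 ± 0.31 in the lowland, overlapping between the groups (difference 0.31, two-sided exact permutation test, p = 0.4, adjusted p = 0.4). That difference was 0.14 without highland animal 1 and 0.15 without lowland animal 3.

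SIRT3 had the clearest separation of the 9 genes. Its FPKM was 5.46, 5.24 and 4.21 in the highland and 3.26, 3.31 and 2.83 in the lowland. Every lowland animal lay below every highland animal, and the spread within a group was small. The means were 4.97 ± 0.665 and 3.14 ± 0.263, 1.58-fold higher in the highland. The log2 fold change was −0.53 (SE 0.14, 95% interval −0.85 to −0.20), with an unadjusted p of 0.00666 and an adjusted p of 0.313 from limma over all tested genes. It ranked 211 among the 10005 genes by p. With any 1 library left out the estimate stayed between −0.62 and −0.47, and it did not pass the adjusted threshold in any of these fits.

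**Figure D2:**
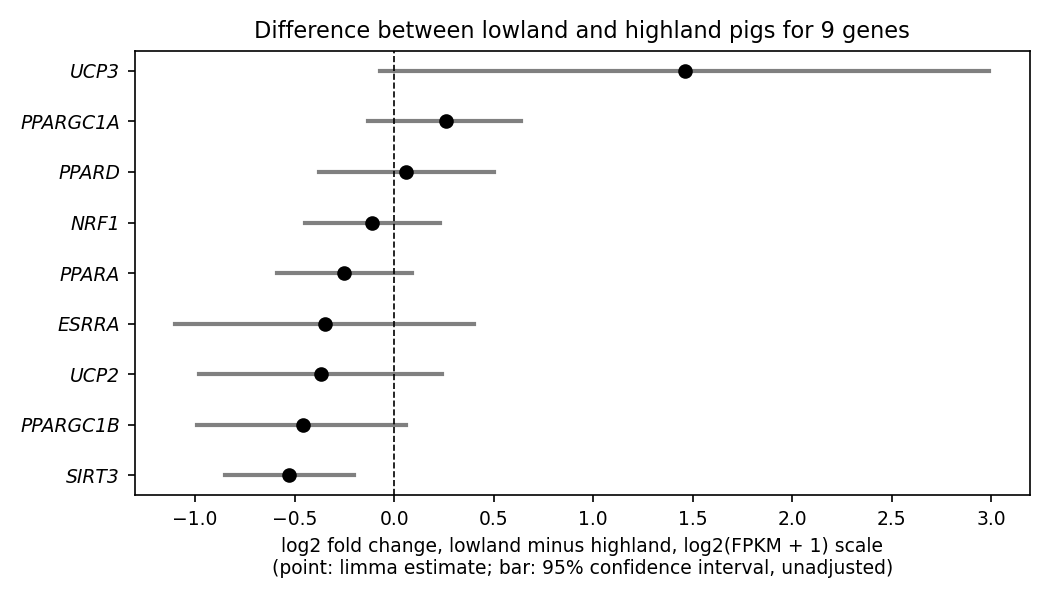
Fitted log2 fold change (x axis, lowland minus highland, log2(FPKM + 1) scale) of the 9 genes with unadjusted 95% confidence intervals from limma on 3 against 3 libraries. Only the interval of SIRT3, −0.85 to −0.20, lies wholly on one side of 0, and that of UCP3, −0.07 to 2.99, is the widest.

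UCP3 had the largest estimate and the largest spread of the 9 genes. Its FPKM was 4.18, 14.3 and 24.7 in highland animals 1 to 3 and 22.4, 24.4 and 70.5 in lowland animals 1 to 3. The groups overlapped, since highland animal 3 lay just above lowland animals 1 and 2. The difference in mean FPKM came largely from the high value of lowland animal 3. On the log2 scale the estimate rested also on the low value of highland animal 1. The means were 14.4 ± 10.3 and 39.1 ± 27.2, a ratio of 2.72, with a log2 fold change of 1.46 (SE 0.65, 95% interval −0.07 to 2.99, limma, adjusted p = 0.545, unadjusted p = 0.0586). The estimate was 0.82 without highland animal 1 and 0.94 without lowland animal 3.

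The lowest and the highest library differed 16.9-fold for UCP3, against 1.56- to 4.21-fold for the other 8 genes. Its pooled SD within the groups was 1.05 on the log2 scale, larger than that of 98.8% of the tested genes, whose median was 0.22. By the same measure ESRRA (0.48) and UCP2 (0.38) exceeded 90.8% and 83.5% of tested genes. The regulators SIRT3 (0.13), PPARA (0.15), NRF1 (0.15) and PPARGC1A (0.20) were below the median. Adding 1 to the FPKM makes the spread of genes near an FPKM of 1 look smaller. PPARA and NRF1 differed 1.76- and 1.77-fold between libraries, more than PPARD at 1.56-fold, whose SD was larger (0.24).

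UCP2, which is expressed in many tissues and in immune cells, had its estimate on the other side of 0 from UCP3. It was at 6.43, 5.96 and 5.68 in the highland and at 4.67, 2.68 and 6.71 in the lowland. Highland animals were close together, and lowland animals 2 and 3 held the lowest and the highest value of all. The means were 6.03 ± 0.381 and 4.69 ± 2.02, with a log2 fold change of −0.37 (95% interval −0.98 to 0.24, limma, adjusted p = 0.703). It was −0.09 without lowland animal 2 and −0.62 without lowland animal 3.

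Macrophage and lymphocyte markers varied between the same lowland animals. The summed FPKM of the 4 macrophage markers with a row was 35.8 to 52.1 in the highland and 28.5, 36.8 and 71.5 in lowland animals 1 to 3, most of it from the complement gene C1QA. The 4 lymphocyte markers with a row summed to 7.30 to 8.52 in the highland and to 4.02, 4.64 and 9.79 in lowland animals 1 to 3. Lowland animal 3 was thus the highest of the 6 for UCP2 and for both marker sums, the lymphocyte sum being carried there by PTPRC (4.45) and CD2 (3.85). The T cell marker CD3D of the same list ran otherwise, at 2.04, 2.82 and 1.87 in the highland and 0.991, 1.07 and 1.07 in the lowland, without overlap of the groups (log2 fold change −0.66, limma, adjusted p = 0.238); it is singled out here with its values known. No marker with a row was at 0 throughout. Lowland animal 2 was the lowest of the 6 for UCP2 (2.68) but lay above lowland animal 1 for both marker sums. The part of immune cells in the UCP2 values was not tested. In RefSeq UCP2 overlaps the gene DNAJB13 and ESRRA overlaps TRMT112. PPARGC1A overlaps 2 long noncoding RNA genes and PPARGC1B the microRNA gene MIR378-1. Since it is not stated whether the counting used strand, the division of reads at these places is uncertain.

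The ratio of UCP3 to UCP2 separated the groups. UCP3 was 0.649, 2.39 and 4.35 times UCP2 in FPKM in the highland and 4.80, 9.10 and 10.5 times in the lowland. Highland animal 1 was the only library with more UCP2 than UCP3, and highland animal 3 came close to lowland animal 1. The log2 ratio averaged 0.85 ± 1.26 (SD, n = 3) in the highland and 2.68 ± 0.59 in the lowland, a difference of 1.83 (two-sided exact permutation test, p = 0.1, the smallest possible; 0.15 after Benjamini-Hochberg adjustment over 3 ratios). The difference was 1.14 without highland animal 1.

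**Figure D3:**
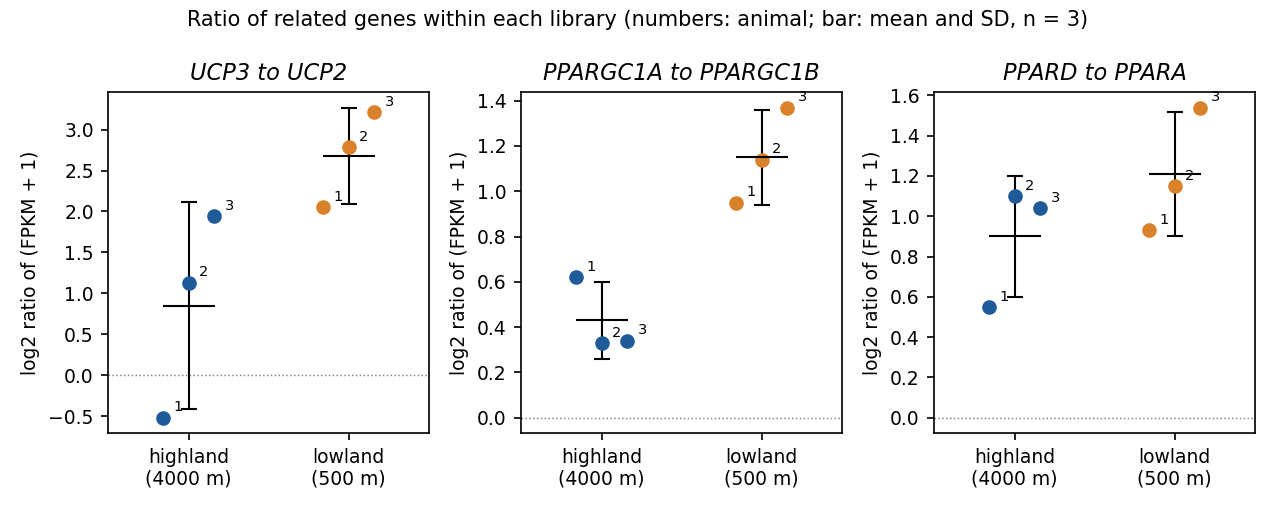
Within-library log2 ratio of FPKM + 1 (y axis) for 3 pairs of related genes, with a point per animal and bars for the mean and SD of 3 animals. The groups are apart for UCP3 to UCP2 and for PPARGC1A to PPARGC1B and overlap for PPARD to PPARA.

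Genes known as PPAR targets in muscle lay on both sides of 0. Of 23 listed, 16 had a row and 15 were tested, with 9 estimates above 0 and 6 below and a median log2 fold change of 0.07, beside 0.041 over all genes. By limma with Benjamini-Hochberg adjustment 0 passed, and 4 were at an unadjusted p under 0.05, beside 9.42% of all tested genes. The groups did not overlap in 3 genes on the higher and 2 on the lower side in the lowland, beside 11.3% and 4.80% of all tested genes. These were PDK4, HADHA and ECH1, and PLIN5 and DECR1, of which HADHA and ECH1, enzymes of fatty acid oxidation, were named after their values were seen (log2 fold changes of 0.24 and 0.17).

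PDK4, the kinase that shuts off pyruvate dehydrogenase and spares glucose, had the largest estimate of this list. It was at 22.9, 0.722 and 48.3 in the highland and at 321, 130 and 527 in the lowland. The groups did not overlap, and highland animal 2 was far below the other 5. The log2 fold change was 4.47 (SE 1.19, limma, adjusted p = 0.313). CPT1A, a form of the enzyme that admits long-chain fatty acids to mitochondria, was at 1.33, 0.847 and 5.01 in the highland and 5.17, 3.56 and 10.2 in the lowland, with 1.20 (adjusted p = 0.506 in limma with Benjamini-Hochberg adjustment). It was named after its values were seen, as the remaining gene of the 4. PDK4, CPT1A and UCP3 shared their highest library, lowland animal 3, and highland animal 3 was the highest of its group for each of them. Of the other tested genes of the list, SLC25A20, ECH1 and PNPLA2 were also highest in lowland animal 3. The rest, among them ANGPTL4 and ACADM, were highest in other libraries. These genes were named after their values were seen.

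PLIN5 and DECR1 had estimates on the other side of 0. PLIN5, which ties lipid droplets to mitochondria, was at 6.64, 6.37 and 6.45 in the highland and 1.74, 3.0 and 2.51 in the lowland (log2 fold change −1.15, limma, adjusted p = 0.0732). DECR1, an auxiliary enzyme for oxidation of unsaturated fatty acids, was at 35.8, 27.5 and 23.8 in the highland and 18.5, 20.8 and 18.2 in the lowland (−0.56, adjusted p = 0.401). The groups did not overlap in either gene. CPT1B, the muscle form of the carnitine transferase, and ACSL1, which activates fatty acids, had estimates of −0.02 each and were named after their values were seen.

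**Figure D4:**
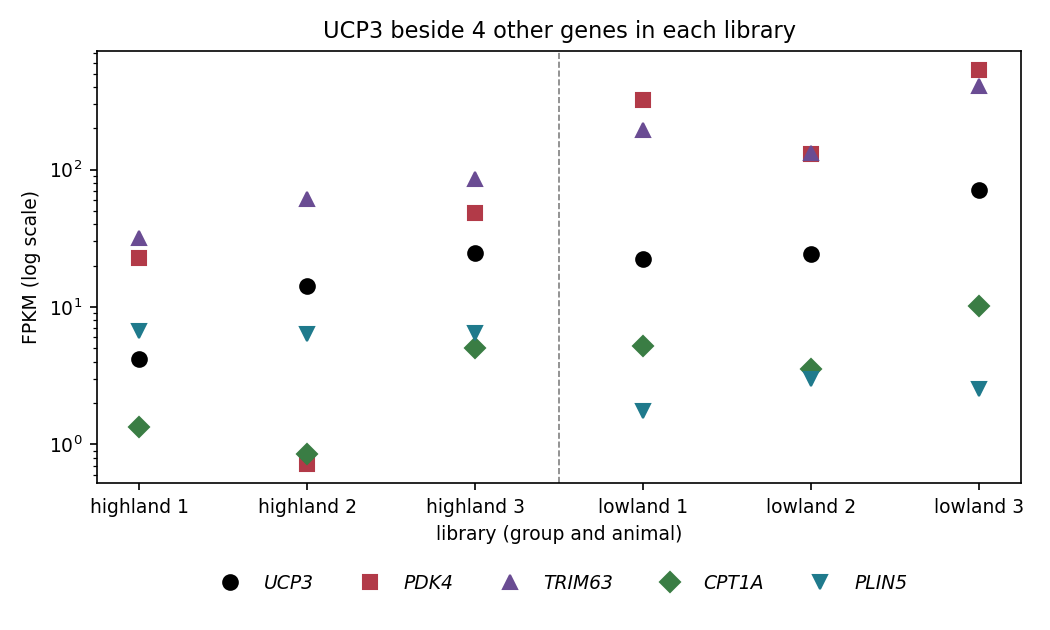
FPKM (log axis) of UCP3, 3 PPAR target genes (PDK4, CPT1A and PLIN5) and the ubiquitin ligase TRIM63 in each library, with a dashed line between the groups. UCP3, PDK4, CPT1A and TRIM63 reach their highest values in lowland animal 3, at 70.5, 527, 10.2 and 406, while PLIN5 is above 6 in the highland animals and at most 3.0 in the others.

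Partners and regulators of the coactivators and PPARs centred close to 0. Of 31 listed, 25 had a row and 21 were tested, with 12 above 0, 9 below and a median log2 fold change of 0.03. None passed in limma, and 2 were at an unadjusted p under 0.05, beside 9.42% of all tested genes. The groups did not overlap in 4 genes, all higher in the lowland, where 11.3% of all tested genes did so. The corepressors NCOR1 and NRIP1 gave the smallest p-values. NRIP1, which represses oxidative genes in muscle, was at 4.35, 6.43 and 4.48 in the highland and 12.3, 6.50 and 12.9 in the lowland (log2 fold change 0.89, limma, adjusted p = 0.374).

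NCOR1, a corepressor of nuclear receptors, was at 4.82, 5.80 and 6.56 in the highland and 8.61, 8.38 and 8.64 in the lowland (0.51, adjusted p = 0.332, limma). CRTC2, a CREB coactivator that raises PPARGC1A transcription, was at 5.81, 5.81 and 7.15 in the highland and 8.25, 7.06 and 7.77 in the lowland, with overlapping groups (0.26, adjusted p = 0.608, limma). In both corepressors the groups did not overlap, though NRIP1 in lowland animal 2 was within 0.1 of the highest highland value. The other two genes of the 4, the coactivator NCOA1 (0.14) and the AMP kinase subunit PRKAB1 (0.19), were named after their values were seen.

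Genes that maintain and transcribe the mitochondrial genome, several of them known targets of NRF1, had estimates on both sides of 0. Of 16 listed, 12 had a row and 8 were tested, with 4 above and 4 below 0 and a median log2 fold change of −0.02. By limma 0 passed and 1 gene was at an unadjusted p under 0.05, beside 9.42% of all tested genes. That gene was MGME1, a nuclease of mitochondrial DNA, at 3.38, 2.25 and 2.23 in the highland and 1.67, 1.79 and 1.51 in the lowland (−0.43, adjusted p = 0.467), without overlap of the groups. TFB1M was at 1.13 ± 0.242 (SD, n = 3) and 1.48 ± 0.139, and the terminator family member MTERF3 at 8.34 ± 0.680 and 6.97 ± 0.911, both with an adjusted p above 0.6 in limma.

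TFB2M, which opens mitochondrial promoters together with TFAM, was under the filter and was not tested. It was named after its values were seen. Its FPKM was 0.901, 1.25 and 1.89 in the highland and 0.206, 0.364 and 0.298 in the lowland, a low level at which the groups did not overlap.

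The remaining lists held few genes and no pass. Of 14 mitochondrial sirtuins and SIRT3 substrates, 11 had a row and 9 were tested, 4 above and 5 below 0, with a median log2 fold change of −0.04. In limma 0 passed and 0 were at an unadjusted p under 0.05, beside 0.230% and 9.42% of all tested genes. With 9 genes and such shares, counts of 0 say little about this list. The smallest p-values of the list belonged to NDUFA9 of complex I (109 ± 23.3 in the highland and 87.7 ± 22.0 in the lowland), SDHA of complex II (93.7 ± 19.9 and 78.6 ± 13.6) and the matrix isomerase PPIF (4.22 ± 0.288 and 3.23 ± 2.15), each with overlapping groups.

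Of 7 carriers that leak protons or resemble uncoupling proteins, 4 had a row and 3 were tested. SLC25A4, the adenine nucleotide carrier of muscle and heart, was far more abundant per length than UCP2 or UCP3, at 773 ± 190 in the highland and 678 ± 184 in the lowland, and the groups overlapped. SLC25A5, its paralog, was at 9.31 ± 2.0 and 8.24 ± 1.98. SLC25A27, also called UCP4 and best known in brain, was at 0.683, 0.746 and 1.05 in the highland and 1.24, 1.14 and 1.58 in the lowland, close to the filter, without overlap (log2 fold change 0.35, limma, adjusted p = 0.506). It was the 1 gene of this list at an unadjusted p under 0.05, beside 9.42% of all tested genes, and 0 passed. Of 8 fusion and fission genes 2 were tested, MFN2 (28.0 ± 6.74 and 29.4 ± 3.49) and OPA1 (6.42 ± 0.311 and 7.45 ± 1.41), both fusion proteins, with overlapping groups, 0 passes and 0 at an unadjusted p under 0.05 in limma.

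**Figure D5:**
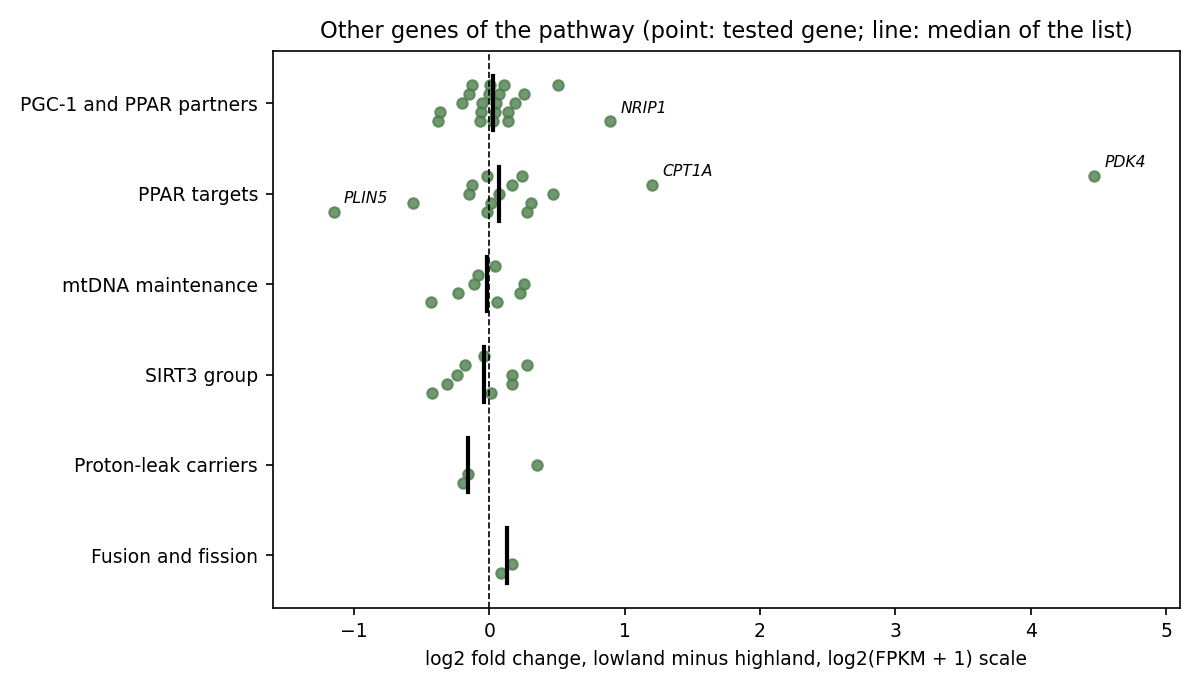
Log2 fold change (x axis, lowland minus highland, log2(FPKM + 1) scale) of each tested gene in 6 lists of related genes, with the median of each list as a black line. The medians lie between −0.16 and 0.13, and PDK4 at 4.47 lies farthest from 0.

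For each of the 9 genes the closest profile among 6718 other tested genes with a symbol was sought, as the root mean square difference of log2(FPKM + 1) values centred over the 6 libraries. With so many genes and 6 libraries some near match is found for most profiles, and the matches are given as a description. The closest to SIRT3 was NDUFAF7, an assembly factor of complex I (difference 0.04), at 4.79, 4.99 and 4.09 in the highland and 2.95, 3.06 and 2.66 in the lowland. The closest to PPARGC1B was the phospholipid enzyme LPCAT3 (0.08), and the closest to ESRRA was ECSIT, another complex I assembly factor (0.14), at 67.5, 45.8 and 52.2 in the highland and 34.8, 60.5 and 42.8 in the lowland.

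UCP3 had the largest difference from its closest profile. This was TRIM63, a ubiquitin ligase of muscle protein breakdown, with a difference of 0.42 against 0.03 to 0.14 for the other 8 genes. A gene that varies more can differ more, and divided by the gene's own root mean square deviation the difference was 0.38 for UCP3, near 0.34 for NRF1 and 0.32 for ESRRA and UCP2. TRIM63 was at 31.6, 61.2 and 84.9 in the highland and 193, 133 and 406 in the lowland. It resembled UCP3 in being lowest in highland animal 1 and highest in lowland animal 3, but unlike UCP3 its groups did not overlap. The closest to PPARA, PPARD, PPARGC1A, NRF1 and UCP2 were ALG11, RHBDF1, SMTN, TXN2 and ECHDC3.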

How the data were processed

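The authors deposited FPKM values for 25322 Ensembl pig gene IDs in 6 libraries. TopHat2 2.0.11 and Cufflinks 2.2.1 are named, with no role given, per the submitters' processing notes. Libraries were strand-specific (dUTP) from TRIzol RNA, per the labels' protocols. Genome build, annotation release and filtering are not stated in these sources, and coordinates are therefore omitted. A gene ID table gave 11804 IDs a symbol. An exact 0 can be a failed estimate, since 107 genes are at 0 in some library and reach an FPKM of 5 in another, but none of the 9 genes was at 0 anywhere.

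A pseudocount of 1 was added before taking log2. Genes reaching an FPKM of 1 in at least 3 libraries were fitted with limma 3.58.1 in R 4.3.3 (trend, two-sided, lowland minus highland), with Benjamini-Hochberg adjustment over all 10005 genes and a threshold of 0.05. Ratios of related genes were compared by exact permutation in Python 3.11.15. The fit was tested on simulated data. A gene of the partner list is not reported here, and the counts of that list leave it out. The members and lists were chosen with earlier results of these data known. Beyond the 9 genes, the rule named up to 3 genes per list by unadjusted p, the closest profile to each of the 9, and the 2 highest markers per cell type. Markers of endothelium, smooth muscle and muscle fibre summed to an FPKM of 28.6 to 49.8, 81.1 to 118 and 2450 to 5111, and the sums of all 9 cell type lists overlapped between the groups. Most of a sum can come from a single gene, such as PECAM1 for endothelium. In 4 single markers the groups did not overlap, as was the case for 16.1% of all tested genes. KDR and CD3D were lower and MYBPC2 and TAGLN higher in the lowland (adjusted p from limma of 0.303, 0.238, 0.431 and 0.599). KDR, the VEGF receptor, was at 5.74, 7.69 and 7.22 in the highland and 1.90, 4.75 and 1.97 in the lowland. The settings varied were the pseudocount (0.1 and 0.5), the filter (none, or a mean FPKM of 5), 3 scalings, 3 variance models, a replicate block and leaving out each library. Figures were drawn with matplotlib 3.10.9.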

Additional observations from a re-analysis of the deposited data

How the results depend on the processing

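In limma none of the 9 genes passed under any of the 17 alternatives, and PPARD was the only one whose estimate changed sign (−0.09 without highland animal 1, −0.003 without lowland animal 2 and −0.07 with array weights, in a range of −0.09 to 0.18 with 1 animal left out; the cause was not tested). SIRT3 lay between −0.64 and −0.46, with adjusted p from 0.198 to 0.753, and UCP3 between 0.82 and 1.97, with adjusted p from 0.244 to 0.920. The shared replicate numbers are not stated to pair animals, and same-numbered libraries deviated with correlations of −0.0154, 0.0949 and −0.141. With the replicate block UCP3 had an unadjusted p of 0.00324 and an adjusted p of 0.244, 0 of the 9 genes passed, and 19 of all genes passed against 23. The count over all genes was 6 with no filter, 9 after scaling by the median of ratios, 10 after quantile normalization and 38 under array weights, and 4 to 21 with 1 animal left out (11 without highland animal 2, 4 without highland animal 3, 6 without lowland animal 1 and 4 without lowland animal 3; the cause was not tested). The filter at a mean FPKM of 5 kept 4 of the 9 genes, with 0 at an unadjusted p under 0.05 in limma. The other alternatives had 1 to 3 genes at that level. In limma PPARGC1B was among them after scaling by the median of ratios (0.0371), after quantile normalization (0.0267) and with array weights (0.0194). It was also among them without highland animal 1 (0.0186) or lowland animal 2 (0.0484). Rescaling to a common total moved the median of all genes to 0.102 and gave 26 higher and 6 lower genes in the lowland, against 16 and 7. The ratio differences kept their sign with either other pseudocount and with each library left out, at 1.14 to 2.38 for UCP3 to UCP2, 0.61 to 0.82 for PPARGC1A to PPARGC1B and 0.14 to 0.45 for PPARD to PPARA across left-out libraries. Absolute depth is unknown, which limits what can be said of genes near an FPKM of 1, such as NRF1 and PPARGC1B.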
